A study of Mus musculus with 39 samples.

Results

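Ccna1, Ccna2, Ccnb1, Ccnb2, Ccnd1, Ccnd2, Ccnd3, Ccne1, Ccne2 and Ccno, the A, B, D and E type cyclin genes with Ccno, were described across mouse embryos at the 2-cell and 4-cell stages. The 10 genes were chosen by symbol, from 55487 genes in the table, and each had its own row. Transcripts were measured by a Smart-seq2 type RNA sequencing of polyadenylated RNA, with 1 library made from each intact embryo or from each blastomere of an embryo taken apart. All embryos were wild type (WT), and no further agent or allele is named in the labels. The groups were 4 intact 4-cell embryos (numbered 1, 3, 4 and 5), 5 intact 2-cell embryos (1 to 5), 5 separated 4-cell embryos (2, 3 and 4 in batch 1, 6 and 7 in batch 2) and 5 separated 2-cell embryos (1 to 5), so that 39 libraries represent 19 embryos. The other groups belong to batch 1. The labels name neither the mouse strain nor any culture between separation and lysis, and do not say that embryos came from separate animals, so the p-values cover no more than the variation among the embryos at hand, part of which may be technical.

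Cyclins are the regulatory subunits of cyclin-dependent kinases, and their periodic synthesis and destruction drives the cell through its cycle. D cyclins pair with Cdk4 and Cdk6 in early G1, E cyclins with Cdk2 at the entry into S phase, A cyclins with Cdk2 and Cdk1 in S phase and G2, and B cyclins with Cdk1 at mitosis. Early embryos divide without growing, on transcripts stored in the egg and, after activation of the embryonic genome, on their own.

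Counts per embryo, with the blastomeres of a separated embryo summed, ranged from 2738246 to 4194073 in intact 4-cell, 7157817 to 9889926 in intact 2-cell, 13041675 to 15810954 in batch 1 and 86817545 to 103179667 in batch 2 of the separated 4-cell, and 14229851 to 56216690 in separated 2-cell embryos. Depth therefore moved with the groups, and its part in the results was not tested beyond the thinning of counts described with the alternatives. Summed counts per 1000000 (CPM) of 10 oocyte and blastomere markers lay between 6080 and 32700 in all embryos. Markers of cumulus and granulosa cells summed to at most 38.5 CPM, of blood to at most 50.6 CPM, of sperm to at most 25.6 CPM and of oviduct epithelium to at most 135 CPM, with 4 to 8 of 10, 2 to 4 of 6, 3 or 4 of 5 and 1 or 2 of 5 markers at 0 across a group. The cyclins' changes below are differences in relative abundance, and a change in the total RNA of an embryo cannot be seen in such libraries.

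Per length, the mitotic cyclin Ccnb1 was the most abundant of the 10 transcripts. Its level was 489.9 ± 291.5 TPM (transcripts per 1000000, counts corrected for gene length; mean ± SD, n = 19), and it exceeded every other cyclin's mean and stood above Ccna2 in 19 of 19 embryos. Ccna2, the somatic A cyclin, was at 144.9 ± 133.6 TPM and Ccne1 at 115.7 ± 92.7 TPM, and these neighbours in the order did not separate, since Ccna2 was the higher in 12 of 19 embryos. Ccnb2, the second mitotic B cyclin, followed at 43.5 ± 48.5 TPM, with Ccne1 above it in 17 of 19 embryos. Ccne2, the other E cyclin, was at 26.3 ± 28 TPM, and Ccnb2 exceeded it in 12 of 19. Lower by mean came Ccno, known for the multiplication of centrioles in multiciliated cells, at 4.09 TPM. With it stood the G1 cyclins Ccnd3 at 3.06 TPM, Ccnd1 at 0.917 TPM and Ccnd2 at 0.327 TPM. Ccne2 exceeded Ccno in 18 of 19 embryos, but this lower set crossed Ccnb2 or Ccne2 in single embryos. Ccnd3 was at 25.2 TPM and Ccne2 at 6.23 TPM in separated 4-cell embryo 6. Ccno was at 11.3 TPM and Ccnb2 at 3.53 TPM in separated 2-cell embryo 1. Within this lower set, the higher of 2 neighbours by mean was the higher in 10 to 13 of 19 embryos. Ccna1, the A cyclin known from the male germ line, had 0 counts in all 39 libraries, which allows up to 0.00631 CPM over the series, a limit that covers counting error only.

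Of the summed TPM of the 10 cyclins, Ccnb1 made up 60.1 ± 9.57% (n = 19), between 40.2% and 76.5% in single embryos. Ccna2 made up 15.9% and Ccne1 13.7%, so that these 3 genes held most of the cyclin message in every group. The share of Ccne2 averaged 1.89 ± 0.496% in intact 4-cell and 4.85 ± 2.72% in intact 2-cell embryos, and 0.382 ± 0.0773% in batch 2 (n = 2) and 1.29 ± 1.43% in batch 1 (n = 3) of the separated 4-cell and 7.68 ± 5.39% in separated 2-cell embryos. Ccnb2 averaged 2.48 ± 1.74% in intact 4-cell and 7.94 ± 2.78% in intact 2-cell embryos. Shares of a sum depend on one another, and they are given as a description with no test. The summed level was 844 ± 279 TPM in intact 4-cell, 593 ± 181 TPM in intact 2-cell, 1905 and 2460 TPM in the 2 embryos of batch 2 and 668 ± 104 TPM (n = 3) in batch 1 of the separated 4-cell, and 607 ± 189 TPM in separated 2-cell embryos. The batch 1 embryos lay between 560.1 and 769 TPM, below both batch 2 embryos. The size of this gap depends on the measure. Ccnb1 averaged 1182 TPM in batch 2 and 415 TPM in batch 1, but 1530 and 1032 CPM on the scale used for the tests below. TPM levels are therefore not read across batches, and the means over 19 embryos pool both.

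**Figure D1:**
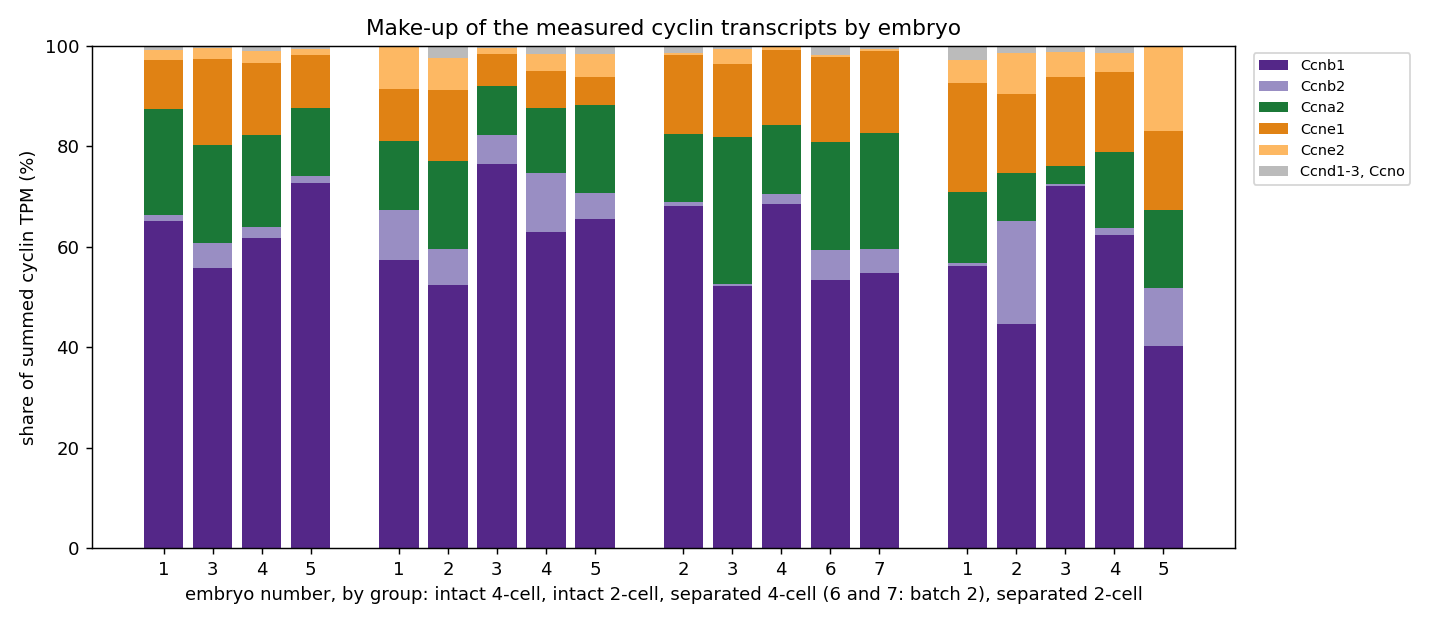
Share of the summed cyclin TPM (vertical axis, percent) held by each cyclin, with 1 bar per embryo, grouped as intact 4-cell, intact 2-cell, separated 4-cell and separated 2-cell. Ccnb1 takes 40.2% to 76.5% of each bar, and the D cyclins with Ccno are a thin band in every embryo.

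The promoters of Ccnb1, Ccnb2 and Ccne1 are shown because these genes carry the contrasts below: the most abundant cyclin, the low B cyclin and the E cyclin. Each sequence is the 250 bases before the gene's start in RefSeq (GRCm38.p6), on the minus strand, written 5′ to 3′ towards the start. They lie at chr13:100786487-100786736 for Ccnb1, chr9:70421555-70421804 for Ccnb2 and chr7:38107491-38107740 for Ccne1. Capitals mark CCAAT, the box bound by NF-Y, and TTTGAA, the cell cycle genes homology region (CHR).
Ccnb1: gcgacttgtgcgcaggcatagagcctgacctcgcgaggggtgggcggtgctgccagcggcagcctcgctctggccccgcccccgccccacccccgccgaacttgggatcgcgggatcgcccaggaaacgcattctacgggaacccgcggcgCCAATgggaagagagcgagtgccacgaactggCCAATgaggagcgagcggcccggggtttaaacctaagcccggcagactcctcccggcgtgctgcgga
Ccnb2: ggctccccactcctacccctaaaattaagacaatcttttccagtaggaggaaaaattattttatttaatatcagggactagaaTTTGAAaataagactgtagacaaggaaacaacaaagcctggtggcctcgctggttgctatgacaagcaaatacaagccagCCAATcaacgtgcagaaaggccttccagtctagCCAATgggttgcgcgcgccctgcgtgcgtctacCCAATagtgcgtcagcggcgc
Ccne1: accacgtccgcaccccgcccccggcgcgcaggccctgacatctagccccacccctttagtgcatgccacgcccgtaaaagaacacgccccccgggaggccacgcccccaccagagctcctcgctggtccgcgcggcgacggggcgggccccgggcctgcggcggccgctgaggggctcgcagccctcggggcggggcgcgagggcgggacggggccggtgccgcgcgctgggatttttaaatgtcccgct
Both strands were searched for CCAAT, for TTTGAA and for the E2F type motif TTTNGCGC, and no match overlapped another. Ccnb1 holds CCAAT at positions -99 and -67 from the start. Ccnb2 holds it at -87, -54 and -21, with TTTGAA at -167. None of the 3 strings of letters was found in the Ccne1 window. Other forms of these motifs were not searched, so their absence is not shown for any window. Of 32851 RefSeq promoters of that length, 33.8% hold CCAAT, 16% hold TTTGAA and 1.13% hold TTTNGCGC. A match is a description of the letters and not a measured site.

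Between the stages in intact embryos, the E cyclin Ccne1 was the cyclin that passed the test. Ccne1 had 128, 164, 160 and 174 CPM in intact 4-cell embryos 1, 3, 4 and 5, against 105, 98.7, 57.5, 57.4 and 68.7 CPM in intact 2-cell embryos 1 to 5. Every 4-cell value lay above every 2-cell value. Ccne1 rose to 157 ± 19.8 CPM in intact 4-cell embryos (SD, n = 4), against 77.5 ± 23.0 CPM in intact 2-cell embryos (n = 5), a log2 fold change of 1.02 ± 0.29 (SE, edgeR adjusted p = 0.0319). This was 1 of 9 cyclins tested, beside 10.4% of the 14119 genes tested called in either direction and 5.41% called higher (4.99% lower). The difference stayed positive, at 0.78 to 1.15, under all 32 alternatives, but Ccne1 did not pass in 21 of them, with adjusted p up to 0.245. It was lost without any 1 of the 4 intact 4-cell embryos (adjusted p = 0.0729, 0.114, 0.105 and 0.127), without intact 2-cell embryo 3, 4 or 5 (0.0686, 0.0673 and 0.0521), and without separated 2-cell embryo 1 or 5 or separated 4-cell embryo 3, 4, 6 or 7, which enter through the shared scaling and spread.

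The mitotic cyclins and Ccna2 had no call between intact stages. Ccnb1 had 1349, 848, 1091 and 1883 CPM in intact 4-cell embryos, against 930.1, 575, 1100.3, 777 and 1274 CPM in intact 2-cell embryos, and the groups overlapped (log2 0.47 ± 0.25, edgeR adjusted p = 0.228). Ccna2 had 421, 289, 311 and 337 CPM in intact 4-cell embryos, against 217, 186, 135, 153 and 332 CPM in intact 2-cell embryos. Its highest 2-cell value, in embryo 5, lay among the 4-cell values (log2 0.73 ± 0.42, edgeR adjusted p = 0.27). Ccnb2 had 9.06, 27.5, 14.7 and 13.4 CPM in intact 4-cell embryos, against 58.4, 28.8, 30.0, 52.3 and 36.3 CPM in intact 2-cell embryos. Every 4-cell value lay below every 2-cell value, though the nearest 2 were 27.5 and 28.8 CPM, and the difference did not pass (log2 -1.35 ± 1.0, edgeR adjusted p = 0.408). Ccnb2 and Ccne1 were the 2 cyclins whose intact stages did not overlap, and 17.0% of all genes tested had no overlap there. For Ccnb2 this depends on the row of its pseudogene, Ccnb2-ps. That row had 7.07 CPM in intact 4-cell embryo 3, the 27.5 CPM embryo, and 0 CPM in intact 2-cell embryo 2, the 28.8 CPM embryo. With those counts added to Ccnb2 the 2 stages would overlap.

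Ccne2, the other E cyclin, had no call. It had 32.4, 26.8, 34.2 and 25.6 CPM in intact 4-cell embryos, against 114, 57.7, 16.2, 35.7 and 73.6 CPM in intact 2-cell embryos. The 4-cell values were close together and lay within the wider 2-cell range (log2 -1.0 ± 0.71, edgeR adjusted p = 0.386). The counts of the D cyclins and Ccno were too low for a firm statement on either side. Ccnd3 had 11.7, 3.72, 1.22 and 17.8 CPM in intact 4-cell embryos, against 3.32, 0.164, 0, 21.8 and 9.96 CPM in intact 2-cell embryos, and both groups spanned the same range (log2 0.29 ± 1.67, edgeR adjusted p = 0.939). Ccnd1 was at 0 in 1 of 4 intact 4-cell and 3 of 5 intact 2-cell embryos, with at most 4.39 and 4.32 CPM. Ccnd2 was at 0 in 2 of 4 and 3 of 5, and Ccno was at 0 in 2 of 4 and 0 of 5. Their differences had standard errors of 1.96 to 2.57 on the log2 scale. The median log2 fold change over the 9 cyclins was 0.287, and over all genes tested it was -4.61e-05. Between separated stages, described next, the medians were -0.0947 over the cyclins and -0.152 over all genes.

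**Figure D2:**
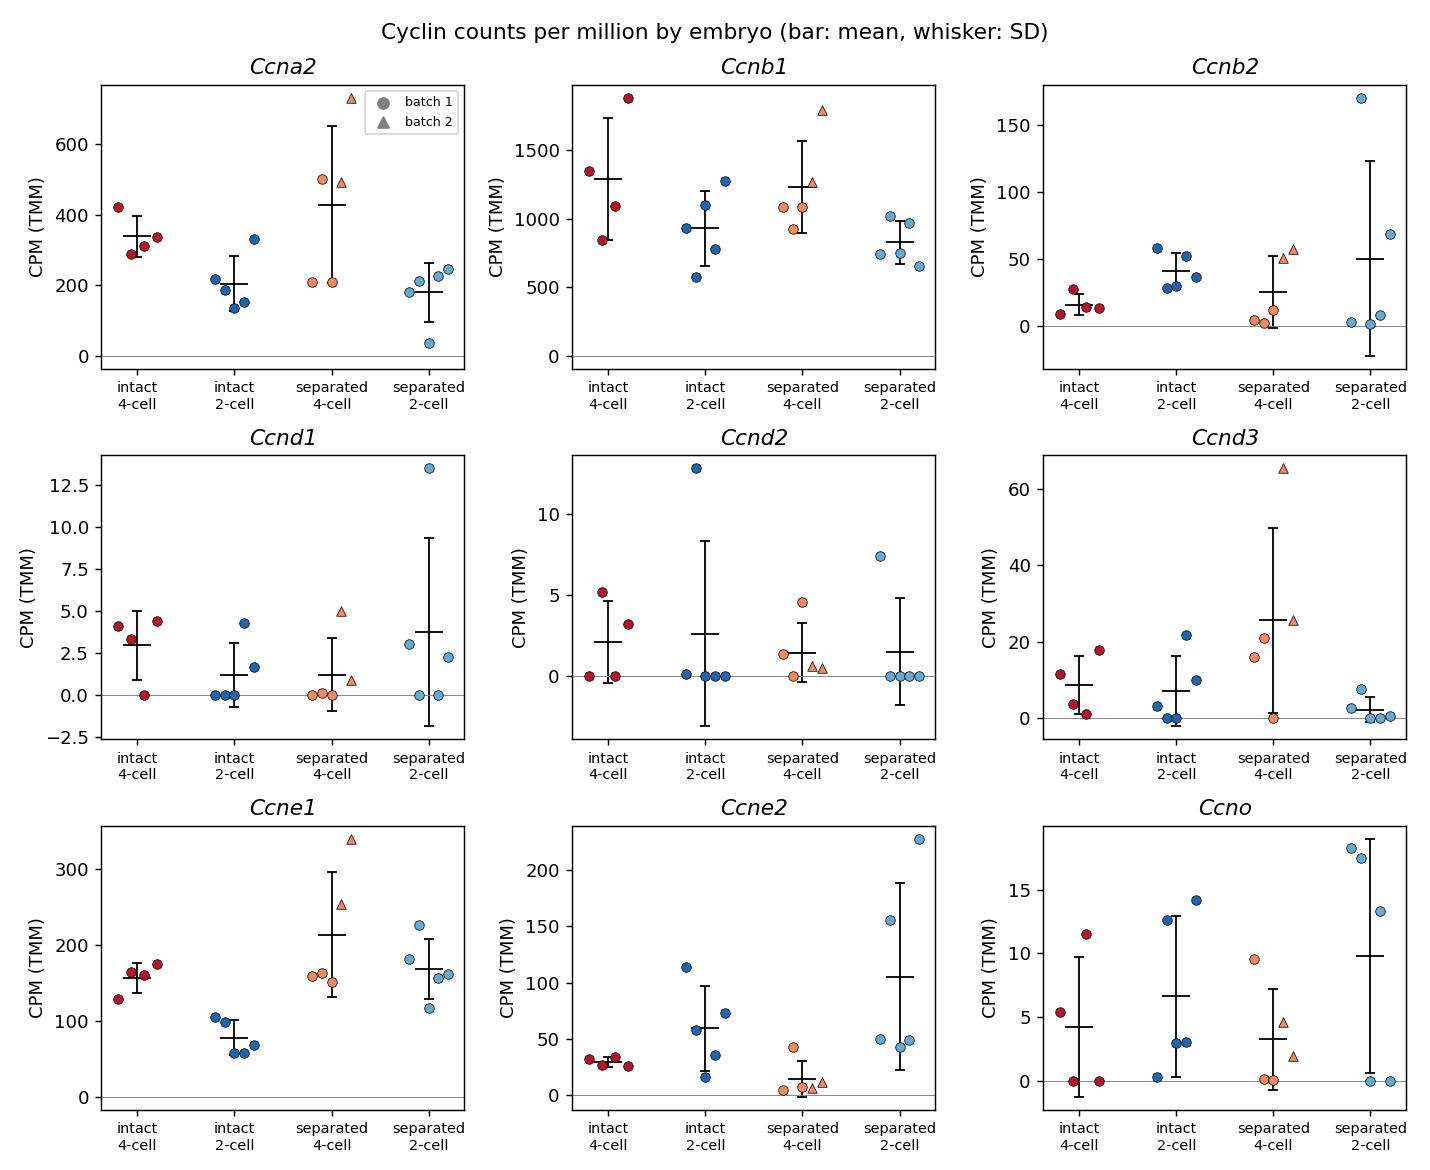
CPM after TMM scaling (vertical axis) of each measured cyclin in single embryos, grouped as intact 4-cell, intact 2-cell, separated 4-cell and separated 2-cell, with circles for batch 1, triangles for batch 2, bars for means and whiskers for SD. Ccne1 separates the intact stages, with 128 to 174 CPM at the 4-cell stage, and the batch 2 embryos lie highest for Ccne1 at 253 and 339 CPM.

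Between the stages in separated embryos, 0 of 9 cyclins passed with edgeR, and 11.1% of genes tested did (6.4% higher and 4.7% lower). No cyclin had stages without overlap, as 20.4% of genes did. At an unadjusted p under 0.05 there were 2 cyclins, Ccne2 and Ccnb2, beside 27.9% of genes, and DESeq2 called these 2. Batch 2 holds separated 4-cell embryos and nothing else, so the fit compares the batch 1 level with the separated 2-cell embryos, and batch 2 values stand beside it. Ccne2 had 4.56, 43.1 and 7.64 CPM in separated 4-cell embryos 2, 3 and 4 of batch 1 and 6.42 and 11.9 CPM in embryos 6 and 7 of batch 2, against 50.4, 156, 42.9, 49.2 and 228 CPM in separated 2-cell embryos 1 to 5. Of the 5 separated 4-cell embryos, 4 lay below all 2-cell embryos, and embryo 3 lay just above the lowest of them. The log2 difference was -2.51 ± 0.84 (edgeR adjusted p = 0.0593), and without embryo 3 it was -4.15 (adjusted p = 0.0182). Ccne2 stayed without a call in 28 of 32 alternatives, with adjusted p up to 0.245, and its difference ran from -4.15 to -2.03.

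Ccnb2 divided the separated 4-cell embryos by batch. It had 4.63, 2.05 and 11.9 CPM in batch 1 and 50.8 and 57.8 CPM in batch 2, against 3.43, 170.0, 1.55, 8.32 and 68.7 CPM in separated 2-cell embryos. The 2-cell embryos themselves ran from near 0 to the highest value of any group. The log2 difference was -3.03 ± 1.2 with the batch 1 level (edgeR adjusted p = 0.109) and 0.45 with the batch 2 embryos in place of batch 1 (adjusted p = 0.849). For Ccne2 the same exchange gave -3.2 (adjusted p = 0.0351), so its sign did not depend on the batch.

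Ccne1 did not separate the stages in separated embryos of batch 1. It had 159, 163 and 151 CPM in separated 4-cell embryos of batch 1 and 253 and 339 CPM in batch 2, against 181, 226, 117, 157 and 161 CPM in separated 2-cell embryos. The batch 1 values lay inside the 2-cell range (log2 -0.09 ± 0.32, edgeR adjusted p = 0.898), and both batch 2 values lay above it (1.15, adjusted p = 0.0472, with batch 2 in place of batch 1). The difference between the separated and the intact stage contrast was -1.11 ± 0.44 for Ccne1, with an unadjusted p of 0.0193 and an edgeR adjusted p of 0.456. None of the 9 cyclins and 0.0% of genes tested passed for that difference, where 1228 genes, 8.7%, had an unadjusted p under 0.05 and DESeq2 called 517 genes. With batch 2 in place of batch 1 the difference of the contrasts turned positive for Ccne1, at 0.37 (edgeR adjusted p = 0.872), so its sign depends on the batch. Over all genes the median of that difference was -0.134, and it too turned positive with the exchange. The stage effect on Ccne1 was thus not shown to differ between intact and separated embryos.

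Ccna2 and Ccnb1 had overlapping separated stages. Ccna2 had 209, 503 and 209 CPM in separated 4-cell embryos of batch 1 and 494 and 732 CPM in batch 2, against 181, 213, 36.3, 226 and 246 CPM in separated 2-cell embryos (log2 0.76 ± 0.46, edgeR adjusted p = 0.286). The 2-cell embryo 3 stood low, and 4-cell embryos 3, 6 and 7 stood high. Ccnb1 had 1085, 925 and 1086 CPM in batch 1 and 1267 and 1792 CPM in batch 2 of the separated 4-cell embryos, against 744, 1024, 753, 969 and 657 CPM in separated 2-cell embryos (log2 0.32 ± 0.27, edgeR adjusted p = 0.504). With batch 2 in place of batch 1, Ccna2 (2.10, adjusted p = 0.0107) and Ccnb1 (1.21, adjusted p = 0.0213) passed, so for both the call depends on which batch stands for the 4-cell stage. Ccnd3 had 15.9, 20.9 and 0 CPM in batch 1 and 65.3 and 25.8 CPM in batch 2, against 2.77, 7.69, 0.0971, 0.0394 and 0.674 CPM in separated 2-cell embryos (log2 2.44 ± 1.79, edgeR adjusted p = 0.409). Ccnd1 had 2 counts in the 3 separated 4-cell embryos of batch 1 and 432 in the separated 2-cell embryos, 278 of them in embryo 3. Ccnd2 had counts in 4 of 5 separated 4-cell and 1 of 5 separated 2-cell embryos, and Ccno in 5 of 5 separated 4-cell and 3 of 5 separated 2-cell embryos. Ccno had only 2 counts in separated 4-cell embryo 3 and 1 in embryo 4. By mean it ran the other way, at 3.27 ± 3.97 CPM in separated 4-cell embryos of both batches and 9.82 ± 9.165 CPM in separated 2-cell embryos.

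**Figure D3:**
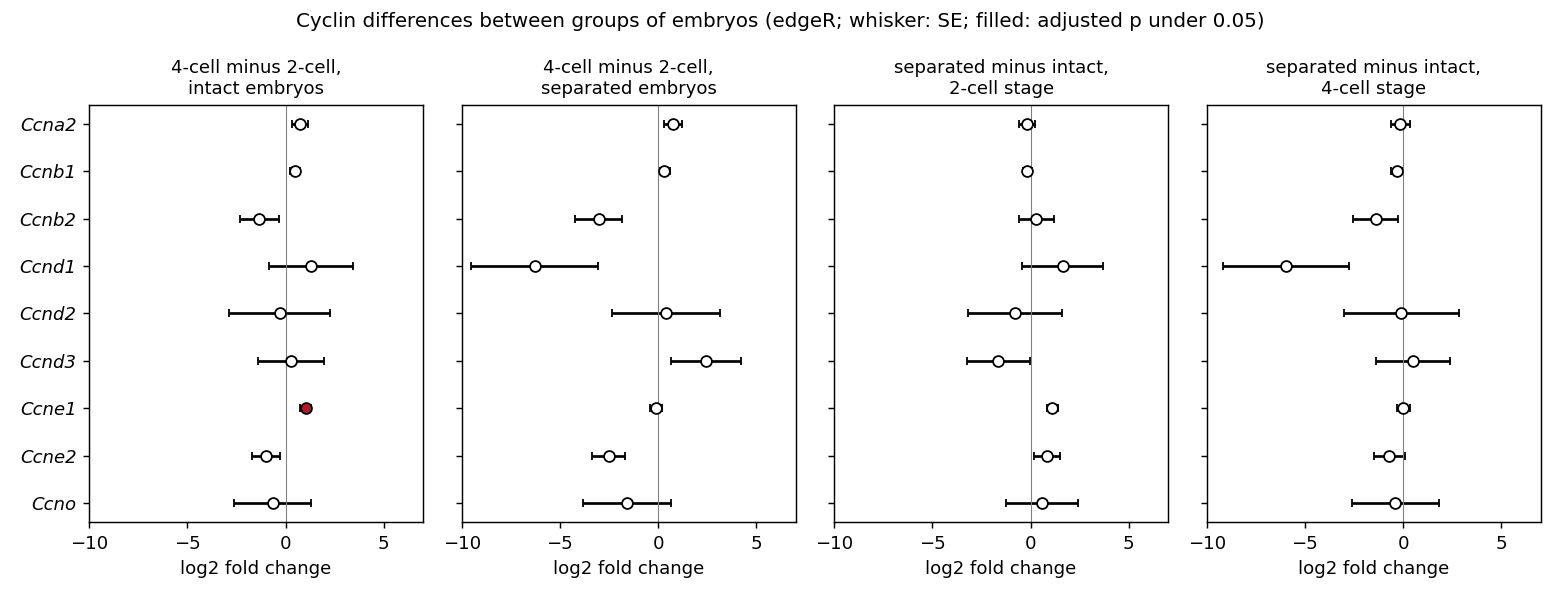
Log2 fold change (horizontal axis) of each tested cyclin in the comparisons of groups of embryos, with whiskers for SE and filled points for an edgeR adjusted p under 0.05. Ccne1 between intact stages, at 1.02, is the filled point, and the whiskers of Ccnd1, Ccnd2 and Ccno are wide in each comparison.

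Separation at the 2-cell stage gave 0 cyclins past the edgeR threshold, with 2 genes of 14119 (0.0142%) passing. Ccne1 came nearest, at 168 ± 39.7 CPM in separated (n = 5) and 77.5 ± 23.0 CPM in intact 2-cell embryos (n = 5), and the lowest separated value, 117 CPM, exceeded the highest intact one, 105 CPM. The log2 difference was 1.12 ± 0.28, with an unadjusted p of 0.000697 and an edgeR adjusted p of 0.244. Ccne1 was the 1 cyclin without overlap there, where 0.552% of genes had none, and the 1 cyclin with an unadjusted p under 0.05, beside 10.5% of genes. DESeq2 called it (0.89, adjusted p = 0.0125), with 493 genes in all. Over 32 alternatives its adjusted p ran from 0.0125 to 1.0 and its sign did not change. Separated embryos are sums of several libraries, each from less starting material, and this cannot be told apart from separation itself. Such a sum weights the deeper sister. The setting with sisters weighed equally is among the 32 alternatives, over which the log2 difference of Ccne1 stayed at 0.849 to 1.25. In separated 2-cell embryos 1 and 2, the sisters of 33658688 and 38381712 counts had Ccne1 at 192 and 233 CPM of the library total. Their sisters of 9631453 and 11338972 counts had 67.6 and 80.9 CPM, where intact 2-cell embryos had 58.3 to 101 CPM of the total. The sisters had 117 and 97.2 CPM in embryo 3, 132 and 174 CPM in embryo 4, and 157 and 184 CPM in embryo 5.

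At the 4-cell stage, separation gave 0 cyclins past the threshold, 0 with an unadjusted p under 0.05 and 0 without overlap, beside 0.0%, 5.98% and 6.19% of genes tested, and DESeq2 called 379 genes with no cyclin among them. Ccne1 had 158 ± 6.35 CPM in separated embryos of batch 1 (n = 3) and 157 ± 19.8 CPM in intact embryos (n = 4), a log2 difference of 0.01 ± 0.33. Ccnb1 had 1032 ± 92.8 CPM in separated embryos of batch 1 and 1293 ± 444 CPM in intact 4-cell embryos (log2 -0.32 ± 0.29, edgeR adjusted p = 1.0). With batch 2 in place of batch 1, the sign turned for 5 of 9 cyclins, Ccnb1, Ccna2, Ccnb2, Ccnd1 and Ccno, and none of the 9 passed the edgeR test. Ccnb1 was at 0.72 (adjusted p = 0.44), Ccna2 at 1.33 (0.351, against -0.15 ± 0.49 with batch 1) and Ccnb2 at 2.25 (0.51, against -1.39 ± 1.14). Ccne1 was at 1.40 (edgeR adjusted p = 0.102). The median over all genes was 0.663 in that exchange and 0.0485 with batch 1. For Ccnd1, Ccnd2, Ccnd3 and Ccno the standard errors ran from 1.89 to 3.20 on the log2 scale with batch 1.

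Within the separated 4-cell embryos, 0 of 9 cyclins passed between batch 2 and batch 1 with edgeR, beside 2.03% of genes, 0.269% higher and 1.76% lower in batch 2. The log2 difference was positive for 7 of 9 cyclins and for 52.8% of genes tested, with a median of 0.91 over the cyclins and 0.13 over all genes. Ccnb2 averaged 54.3 ± 4.92 CPM in batch 2 (n = 2) and 6.19 ± 5.10 CPM in batch 1 (n = 3), a log2 difference of 3.13 ± 1.33 (edgeR adjusted p = 0.316). Ccne1 averaged 296 ± 60.6 CPM in batch 2 and 158 ± 6.35 CPM in batch 1 (0.91 ± 0.39, edgeR adjusted p = 0.325). Values did not overlap for 5 cyclins, Ccnb1, Ccnb2, Ccnd1, Ccnd3 and Ccne1, as for 44.3% of all genes with groups of this size. At an unadjusted p under 0.05 there were 2 cyclins and 13.0% of genes, DESeq2 called Ccne1 (1.15, adjusted p = 0.0172), and limma voom called Ccne1 (0.79, adjusted p = 0.0387) and Ccnd1 (5.71, adjusted p = 0.0315). Batch 2 embryos were also sequenced more deeply, and over whole embryos depth and batch cannot be told apart. Among blastomeres, blastomere 2 of embryo 7 had 2019180 counts, where the lowest of batch 1 had 2404473. It had Ccnb1, Ccnb2 and Ccne1 at 1496, 55.5 and 566 CPM of the library total. The highest batch 1 blastomeres had 1332, 32.5 and 236 CPM. Its Ccnd3 and Ccnd1, at 5.94 and 0 CPM, were not above the highest of batch 1, 57.5 and 0.68 CPM. The part of depth was not tested beyond the thinning.

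The 30 blastomeres of the separated embryos show how evenly sister cells carried each cyclin. Ccnb1, Ccna2 and Ccne1 had counts in all 30, Ccne2 in 28, Ccnb2 in 25, Ccnd3 in 22, Ccno in 18, Ccnd1 in 13, Ccnd2 in 9 and Ccna1 in 0. More than 3 counts were found for Ccne2 in 26, Ccnb2 in 19, Ccnd3 in 17, Ccno in 14, Ccnd1 in 11 and Ccnd2 in 6. For Ccnb1, sisters differed by at most 1.66 times in any embryo: the ratio of the highest to the lowest sister was 1.41 to 1.57 in 4-cell embryos of batch 1, 1.60 to 1.66 in batch 2 and 1.04 to 1.53 in 2-cell embryos. For Ccna2 these ratios were 1.94 to 3.87, 1.18 to 1.42 and 1.52 to 2.87, and for Ccne1 2.23 to 3.37, 1.46 to 1.71 and 1.17 to 2.89. A highest-over-lowest ratio of 4 sisters tends to exceed that of 2, so these ratios do not compare the stages. Ratios over all genes were not taken, and Ccnb1 had the most counts, so its evenness is not shown to be particular to it.

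Single pairs differed widely. In separated 2-cell embryo 2, Ccnb2 had 193.6 CPM of the library total in one blastomere and 0 counts in the other, so the high embryo value above came from 1 cell. In the same embryo the blastomere with Ccnb2 also had the higher Ccne1, 233 against 80.9 CPM, and the higher Ccne2, 170.5 against 23.5 CPM, while Ccna2 was lower there, 165 against 263 CPM. In separated 2-cell embryo 1, Ccne1 was at 192 CPM in the blastomere where Ccne2 was at 27.5 CPM, and at 67.6 CPM in the sister where Ccne2 was at 110 CPM, the opposite order. In separated 2-cell embryo 5, Ccne2 was at 152 and 358 CPM, so both of its cells were high. In separated 4-cell embryo 3, which stood apart for Ccne2, all 4 blastomeres had counts, at 21.1, 52.2, 39.4 and 61.2 CPM, so its value did not come from 1 cell. In embryo 2 of the same group, Ccne2 was at 17.7 CPM in 1 blastomere and at most 0.318 CPM in the other 3.

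When each blastomere was a library and the embryo the factor, no cyclin differed between embryos with edgeR in any set. Of 8 cyclins tested in 2-cell embryos, 6 in 4-cell embryos of batch 1 and 8 in batch 2, 0 passed, beside 0.0333%, 0.152% and 0.794% of genes tested. At an unadjusted p under 0.05 there were 1, 2 and 3 cyclins, beside 6.84%, 9.59% and 12.5% of genes tested. Ccna2 was among them in all 3 sets, with 0.0283 (adjusted p = 0.585) in 2-cell embryos, 0.0144 (0.425) in batch 1 and 0.0188 (0.259) in batch 2 of the 4-cell embryos by the edgeR test. Limma voom called 2 cyclins between 2-cell embryos, Ccnb1 and Ccnd1. In the 4-cell embryos of batch 1, the 4 blastomeres had Ccna2 levels of 336 to 651 CPM in embryo 3, against 90.6 to 351 CPM in embryo 2 and 87.0 to 286 CPM in embryo 4. Ccnd3 had p = 0.0346 (edgeR adjusted p = 0.494) in batch 1 and p = 0.0122 (edgeR adjusted p = 0.209) in batch 2, and Ccne1 had p = 0.0303 (edgeR adjusted p = 0.326) in batch 2.

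**Figure D4:**
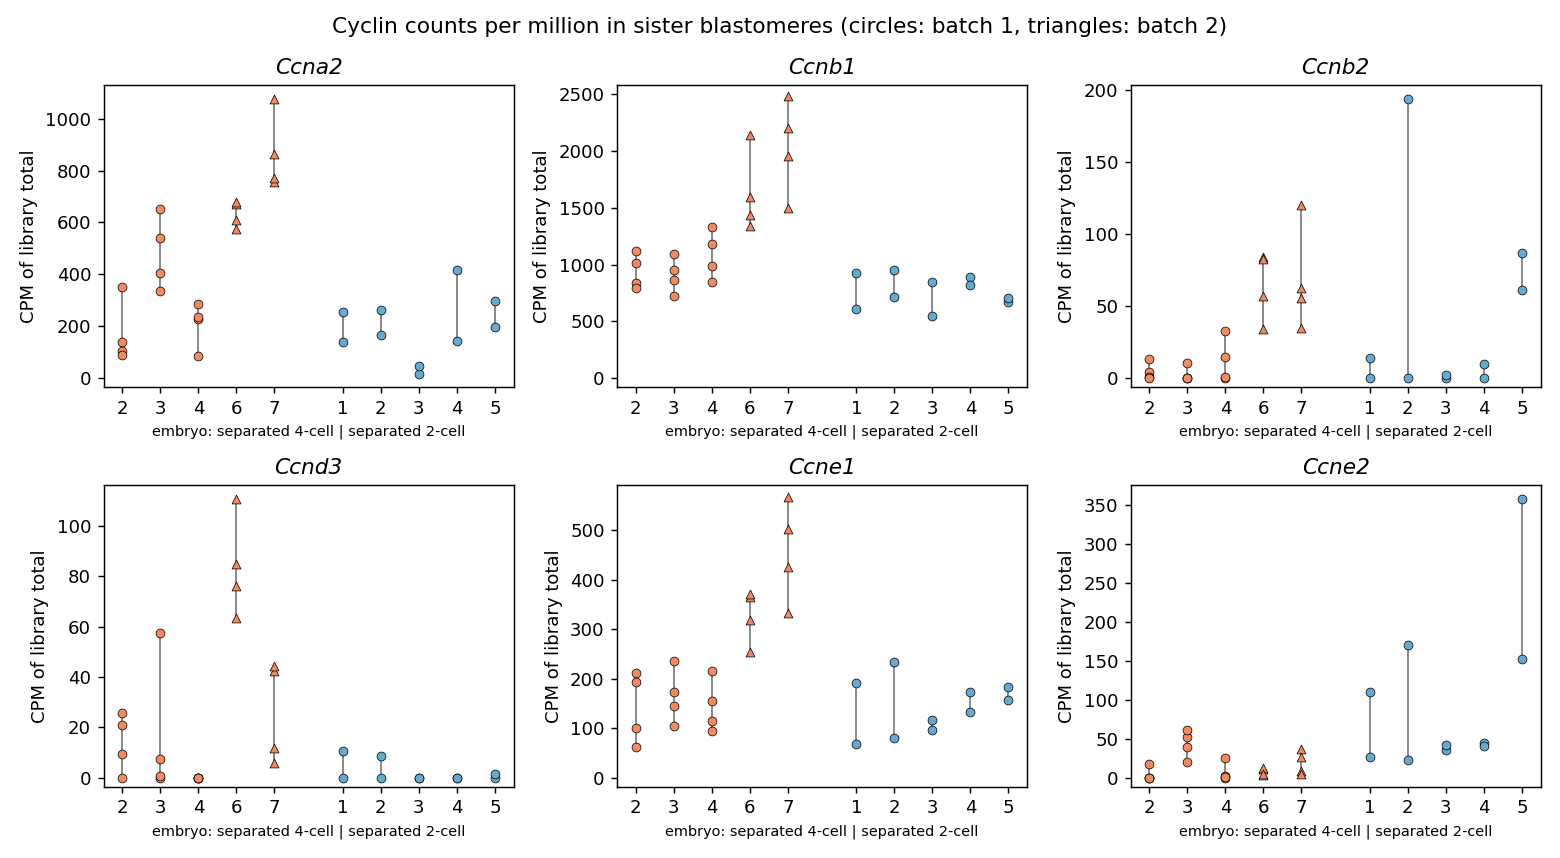
CPM of the library total (vertical axis) of the higher cyclins in single blastomeres, with sisters above the number of their embryo, separated 4-cell embryos left and separated 2-cell embryos right, circles for batch 1 and triangles for batch 2. The sisters of an embryo lie close together for Ccnb1, with ratios of at most 1.66, and in separated 2-cell embryo 2 the Ccnb2 points lie at 193.6 and 0 CPM.

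The partners of the cyclins were read from lists. Over all genes tested, 10.4% passed between intact stages (5.41% higher, 4.99% lower) and 11.1% between separated stages (6.4% higher, 4.7% lower), and 28% and 27.9% had an unadjusted p under 0.05. Each list held few genes and is described by its counts beside these shares. Of 16 cyclin-dependent kinases tested, 0 changed between intact stages with edgeR (1 at an unadjusted p under 0.05, 1 by DESeq2), beside 10.4% of genes, and 1 rose between separated stages (3 and 3), beside 11.1%: Cdk7, of the CDK-activating kinase, had 268 ± 39.5 CPM in separated 4-cell (batch 1, n = 3) and 103 ± 35.3 CPM in separated 2-cell embryos (n = 5; log2 1.38 ± 0.36, edgeR adjusted p = 0.02). Between intact stages Cdk7 was at 148 ± 45.0 CPM at 4-cell and 127 ± 38.2 CPM at 2-cell (edgeR adjusted p = 0.733). The Cdk7 call was lost without separated 4-cell embryo 3 (adjusted p = 0.0697) and with batch 2 in place of batch 1 (0.87, adjusted p = 0.203). Of 6 CDK inhibitors tested, 1 fell in both, beside 4.99% and 4.7% of genes called lower (2 at an unadjusted p under 0.05 and 2 by DESeq2 in each): Cdkn3, the phosphatase that acts on CDKs, had 35.1 ± 20.0 CPM in intact 4-cell and 254 ± 93.5 CPM in intact 2-cell embryos (log2 -2.86 ± 0.45, edgeR adjusted p = 0.000526), and fell by 2.57 ± 0.50 between separated stages (edgeR adjusted p = 0.00312). Batch 2 lay below batch 1 by a log2 of -3.80 ± 0.66 for Cdkn3 (edgeR adjusted p = 0.0024). The medians of the list were -2.42 between intact stages, or -0.979 when a gene with no count in one group is set to 3 counts there, and -1.42 between separated stages, against -4.61e-05 and -0.152 over all genes.

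Of 12 genes for the phosphorylation of CDKs and Cks subunits, 1 rose and 2 fell between intact stages, and 0 rose and 2 fell between separated stages, beside 10.4% and 11.1% of genes called in either direction. There were 5 and 4 of the list at an unadjusted p under 0.05, and DESeq2 called 4 and 3. Wee2, the oocyte kinase that inhibits Cdk1, had 4.89 ± 5.47 CPM in intact 4-cell and 125 ± 67.6 CPM in intact 2-cell embryos (log2 -4.69 ± 1.10, edgeR adjusted p = 0.00996), and 1.5 ± 1.69 CPM in separated 4-cell embryos of batch 1 and 95.9 ± 27.8 CPM in separated 2-cell embryos (edgeR adjusted p = 0.00799). Cks1b, a subunit that docks on CDKs, had 414 ± 128 CPM in intact 4-cell and 1332 ± 336 CPM in intact 2-cell embryos (edgeR adjusted p = 0.000352). Aurka, the kinase of mitotic entry, rose to 184 ± 73.1 CPM in intact 4-cell embryos, against 59.6 ± 24.8 CPM in intact 2-cell embryos (log2 1.62 ± 0.43, edgeR adjusted p = 0.0198), with a log2 of 0.54 ± 0.46 between separated stages (edgeR adjusted p = 0.488). The Aurka call did not hold with intact 4-cell embryo 1 or 5 left out (adjusted p = 0.076 and 0.121), and with batch 2 in place of batch 1 the separated stages gave 2.87 (adjusted p = 0.0011). For Wee2 that exchange gave -3.65 (adjusted p = 0.0732). The list's medians were -0.921 and -0.705.

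Of 27 genes for cyclin destruction, 4 rose and 1 fell between intact stages, and 2 rose and 1 fell between separated stages (medians 0.336 and 0.111). These counts stand beside 10.4% and 11.1% of all genes, so the share of the list between separated stages was near that of all genes. An unadjusted p under 0.05 was found for 8 and 7, and DESeq2 called 6 and 7. Anapc10, a subunit of the anaphase-promoting complex that recognises its substrates, had 606 ± 179 CPM in intact 4-cell and 163 ± 53.0 CPM in intact 2-cell embryos (log2 1.89 ± 0.32, edgeR adjusted p = 0.00104), and 820 ± 205 CPM in separated 4-cell embryos of batch 1 and 241 ± 76.2 CPM in separated 2-cell embryos (1.76 ± 0.34, edgeR adjusted p = 0.00314). Batch 2 lay below batch 1 for Anapc10, with a log2 of -2.11 ± 0.47 (edgeR adjusted p = 0.0188), and with batch 2 in place of batch 1 the difference between separated stages was -0.03 (adjusted p = 0.982). Anapc7, another subunit, rose to 115 ± 25.9 CPM in intact 4-cell embryos, against 34.8 ± 4.24 CPM in intact 2-cell embryos (edgeR adjusted p = 0.0194), and it no longer passed when intact 4-cell embryo 1, 3 or 5 was left out (adjusted p = 0.0544, 0.091 and 0.0805). Its adjusted p of 0.0489 between separated stages was lost in 25 of 32 alternatives. Cul1, the scaffold of the SCF ubiquitin ligases, fell by 1.5 ± 0.36 on the log2 scale between intact stages and by 1.67 ± 0.41 between separated stages (edgeR adjusted p = 0.0125 and 0.0139), the second lost without separated 4-cell embryo 4 (adjusted p = 0.0581). Fbxo31, an F-box protein known for the destruction of cyclin D1, was at 20.1 ± 6.06 CPM in intact 4-cell and 0.0329 CPM in intact 2-cell embryos (edgeR adjusted p = 0.00979), and at 12.9 ± 8.28 CPM in separated 4-cell embryos of batch 1 and 3.22 ± 6.75 CPM in separated 2-cell embryos (edgeR adjusted p = 0.456, or 0.0231 without separated 2-cell embryo 3). The 0.0329 CPM lies below the 0.0745 CPM that 3 counts make over the intact 2-cell embryos.

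Of 19 RB and E2F genes, 0 rose and 2 fell between intact stages, and 0 rose and 1 fell between separated stages (medians -0.674 and -0.91), beside 10.4% and 11.1% of all genes called in either direction. At an unadjusted p under 0.05 there were 7 and 5, and DESeq2 called 5 and 5. E2f5 fell to 38.7 ± 4.49 CPM in intact 4-cell embryos, against 207 ± 107 CPM in intact 2-cell embryos (log2 -2.42 ± 0.52, edgeR adjusted p = 0.0057), with -1.64 ± 0.56 between separated stages (edgeR adjusted p = 0.062, or 0.0268, 0.0461 and 0.043 without intact 2-cell embryo 5 or separated 2-cell embryo 2 or 4). E2f1, an activator of S phase genes, was at 3.64 ± 2.16 CPM in intact 4-cell and 27.5 ± 14.6 CPM in intact 2-cell embryos (edgeR adjusted p = 0.0435), which did not hold with the removal of intact 2-cell embryo 2, 3 or 4 or any 1 of the 4 intact 4-cell embryos (adjusted p up to 0.107). Rbl1, the pocket protein p107, was at 0.142 ± 0.0133 CPM in separated 4-cell embryos of batch 1 and 28.4 ± 26.9 CPM in separated 2-cell embryos (edgeR adjusted p = 0.0174), and at 5.25 ± 5.65 CPM in intact 4-cell and 12.6 ± 8.84 CPM in intact 2-cell embryos. In separated 4-cell embryo 3 of batch 1, 2 counts make 0.128 CPM. The Rbl1 value of that group thus rests on very few counts, and its narrow SD does not show a steady level. The Rbl1 call did not hold with separated 4-cell embryo 2, 3 or 4 left out (adjusted p = 0.0592, 0.0621 and 0.0656) and with batch 2 in place of batch 1 (-3.03, adjusted p = 0.308).

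Of 19 other cyclin box genes tested, 1 rose and 2 fell between intact stages, and 0 changed between separated stages with edgeR (medians -0.921 and -1.11), beside 10.4% and 11.1% of all genes. At an unadjusted p under 0.05 there were 5 between intact and 4 between separated stages, where 28% and 27.9% of genes were, and DESeq2 called 4 and 4. Ccnb3, a B-type cyclin of meiosis, was at 21 ± 5.77 CPM in intact 4-cell embryos, with 0.0329 CPM in intact 2-cell embryos (edgeR adjusted p = 0.0138), and at 43.7 ± 6.06 CPM in separated 4-cell embryos of batch 1 and 12 ± 23.3 CPM in separated 2-cell embryos (edgeR adjusted p = 0.522). Ccnj was at 0.0611 ± 0.122 CPM in intact 4-cell and 9.96 ± 9.93 CPM in intact 2-cell embryos (edgeR adjusted p = 0.0489). Ccnjl was at 0 in intact 4-cell embryos and at 8.43 ± 8.23 CPM in intact 2-cell embryos (edgeR adjusted p = 0.0465). The 0.0329 CPM of Ccnb3 and the 0.0611 CPM of Ccnj are near 0. They lie below what 3 counts make over their groups, 0.0745 CPM in intact 2-cell and 0.208 CPM in intact 4-cell embryos. Leaving out 1 embryo removed the Ccnj call for 13 of the 19 embryos (adjusted p up to 0.119) and the Ccnjl call for 14 (up to 0.102), among them each intact 4-cell embryo for both.

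Across the 19 embryos, the highest Pearson r between the log2 CPM of 2 cyclins was 0.608 between Ccna2 and Ccnd3, followed by 0.567 between Ccna2 and Ccnb1 and 0.486 between Ccna2 and Ccne1, and the lowest was -0.465 between Ccnb1 and Ccne2. The B cyclins Ccnb1 and Ccnb2 had r = 0.107, and the E cyclins Ccne1 and Ccne2 had r = -0.194. These embryos share their groups, batches and depths, and the values are a description. Of 5957 genes searched over the 19 embryos, the most alike to Ccne1 were Nipbl (r = 0.876) and Dhx9 (0.863), to Ccne2 Osbpl8 (0.875) and Zfp212 (0.863), to Ccna2 Sord (0.911) and Pla2g15 (0.879), to Ccnb1 Crcp (0.815) and Trim43a (0.809), and to Ccnb2 Gabpb2 (0.778) and Ubp1 (0.745). For Ccnd3 they were Pabpc4 (0.83) and Ckb (0.732), for Ccno Clcn5 (0.714) and H2-Q7 (0.692), for Ccnd2 Ak4 (0.707) and Pik3ca (0.643), and for Ccnd1 Necap1 (0.682) and Mettl4 (0.655).

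The counting of some cyclins is uncertain. In the annotation (GRCm38, GENCODE M21), exons of Ccna2 (chr3:36564865-36572150, minus strand) share 510 bases with Exosc9 on the other strand. Ccne2 (chr4:11191351-11204779, plus strand) shares 609 bases with Ints8, Ccnd1 (chr7:144929931-144939925, minus) 1100.0 bases with LTO1, and Ccnd3 (chr17:47505051-47599691, plus) 361 bases with Bysl. Ccnd2 (chr6:127125162-127152193, minus) shares at most 372 bases with Gm43126 and 9330179D12Rik, and Ccna1 (chr3:55045469-55055501, minus) 185 bases with 4931419H13Rik. The strandedness of the libraries is not given in the sources used here, so reads of such partners cannot be told apart. Ccnb1 (chr13:100778650-100786570, minus), Ccnb2 (chr9:70407692-70421547, minus), Ccne1 (chr7:38097984-38107534, minus) and Ccno (chr13:112987802-112990777, plus) share no exon base with another gene. The row of the processed pseudogene Ccnb1-ps held 0.666% as many counts as Ccnb1, and Ccnb2-ps 3.18% as many as Ccnb2 over all embryos. That share was uneven. Ccnb2-ps was at 22.5 CPM in intact 2-cell embryo 3, where Ccnb2 was at 30.0 CPM, and at 7.54 CPM in separated 2-cell embryo 1, where Ccnb2 was at 3.43 CPM. It was at 11.6 CPM in separated 2-cell embryo 5, 7.07 CPM in intact 4-cell embryo 3 and 6.23 CPM in intact 2-cell embryo 1, and at most 0.244 CPM in the other 14 embryos. The Ccnb2 values of these 5 embryos are uncertain to that extent.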

How the data were processed

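Transcripts were measured in 39 libraries of intact embryos or single blastomeres of separated embryos. The authors deposited expected counts per gene. Per the submitters' processing notes, the tools were Trim Galore 0.6.10, STAR 2.7.3a and RSEM 1.2.28, and the build was GRCm38. The annotation and the strandedness are not given in the sources used here. Of the non-zero values, 12.65% were not whole, and all were rounded to whole numbers. No column was left unused and no pair of libraries was identical.

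The counts of an embryo's blastomeres were summed, since the embryo is the replicate (n = 19). All embryos entered 1 edgeR 4.0.16 fit, tested by quasi-likelihood, on the 14119 genes that filterByExpr kept, with TMM scaling, group and batch as terms and Benjamini-Hochberg adjustment over all genes tested, at a threshold of 0.05. On simulated data with the variation of these embryos the fit recovered few of the changed genes, and with a low variation it recovered most, so a cyclin that did not pass may still have changed. The biological coefficient of variation was 1.43. The SE was obtained by dividing a log2 difference by the square root of its F statistic. CPM of embryos are TMM-scaled, and CPM of blastomeres and markers are per library total. TPM used exon lengths of GENCODE M21 (53170 genes matched). Ccna1 had no count, and 9 of 10 cyclins passed the filter. Embryo differences were tested with blastomeres as libraries within a stage and batch. Intervals and floors (3 counts) cover counting error only, since the reads carry no molecular tags. Of the cyclins, 6 had a RefSeq promoter entry, 7 entries in all.

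The members and the lists were chosen with earlier results of these data known. Genes named are the 10 cyclins, up to 4 genes of each list that passed in a stage contrast with the smallest p, and per cyclin the 2 genes of highest Pearson r of log2 CPM (prior count 2, mean CPM of at least 10). Alternatives were the DESeq2 size factors, no filter, a stricter filter (CPM of 1 in 4 embryos), the compared groups alone, a replicate block, DESeq2 1.42.0, limma 3.58.1 voom with quality weights, no batch term, batch 2 left out, thinning to 2738246 counts, pseudogene rows added, each embryo left out, another length and the median in place of the mean. For the embryo differences, limma voom was run without quality weights. Added after seeing the data were sisters weighed equally and batch 2 in place of batch 1. R 4.3.3, Python 3.11.15, numpy 2.4.6, pandas 2.3.3 and matplotlib 3.10.9 were used.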

Additional observations from a re-analysis of the deposited data

Results flagged for a closer look

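Of 36 groups of 4 or 5 embryos examined, 5 had 1 embryo whose gap to the others was above Dixon's critical value at 95%. A rate of about 1 in 20 by chance holds for normally spread values only. Groups with many zeros are not so spread, and the separated 4-cell group holds both batches, so the flags are a description. Ccnd1 was at 5.03 CPM in separated 4-cell embryo 6, against 0 to 0.929 CPM in the other 4, and at 13.5 CPM in separated 2-cell embryo 3, against 0 to 3.05 CPM. Ccnd2 was at 12.8 CPM in intact 2-cell embryo 2, against 0 to 0.139 CPM, and at 7.41 CPM in separated 2-cell embryo 1, with 0 in the other 4. Ccne2 was at 43.1 CPM in separated 4-cell embryo 3, against 4.56 to 11.8 CPM in the other 4.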

How the results depend on the processing

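The 1 cyclin called between intact stages, Ccne1, became 0 with the DESeq2 size factors (adjusted p = 0.058), no filter (0.245), the compared groups alone (0.106), the replicate block (log2 1.13, 0.067), limma voom (0.0913), no batch term (0.0727), batch 2 left out (0.0763) and batch 2 in place of batch 1 (0.12). The counts with 1 embryo left out ran from 0 to 1. Between separated stages the count of 0 became 2 with DESeq2 (Ccne2 -2.62, adjusted p = 0.00339, and Ccnb2 -3.05, 0.0126), 1 with no batch term (Ccne2 -2.84, 0.0103), 4 with batch 2 in place of batch 1 (Ccne1, whose sign turned to 1.15, Ccna2, Ccnb1 and Ccne2), and 0 to 1 with 1 embryo left out. For separation at the 2-cell stage 0 became 1 with DESeq2, and for batch 0 became 1 with the compared groups alone (Ccnb2 3.10, adjusted p = 0.0312), 1 with DESeq2 and 2 with limma voom. Between 2-cell embryos 0 became 2 with limma voom (Ccnb1 and Ccnd1). Of the genes in the 6 lists, 14 passed between intact stages, 9 with the replicate block, 22 with DESeq2, 9 with batch 2 in place of batch 1 and 8 to 15 with 1 embryo left out. Between separated stages 8 passed, 24 with DESeq2, 19 with limma voom, 13 with no batch term and 5 to 11 with 1 embryo left out, and Anapc10 turned to -0.027 with batch 2 in place of batch 1. The cause of these changes was not tested.

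Over all genes, 1469 passed between intact stages, 3047 with DESeq2, 2844 with limma voom, 737 with the replicate block and as few as 798 with 1 embryo left out. Between separated stages 1568 passed, 3210 with DESeq2, 2543 with no batch term, 711 with the replicate block and as few as 811 with 1 embryo left out. Separation at the 2-cell stage gave 2, between 0 and 493, and at the 4-cell stage 0, up to 379. The difference of stage contrasts gave 0, up to 517, and batch gave 286, between 64 and 2374. Over 21 same-numbered pairs, deviations correlated at -0.074 to 0.046. Pairs of different numbers were not set beside them, so whether equal numbers mark a shared origin was not settled. The median log2 of all genes between intact stages, near 0, was 0.577 with limma voom, 0.274 with the replicate block, -0.252 with batch 2 in place of batch 1 and -0.128 with the DESeq2 size factors; between separated stages, -0.152, it was 0.38 with limma voom and 0.163 with the replicate block. Ccnd3 ranked above Ccno with the longest transcript as length, and Ccne1 above Ccna2 with medians.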
